A study of Homo sapiens with 6 samples.

Results

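miR-21 is one of the most intensively studied oncogenic miRNAs, and both of its mature products, hsa-miR-21-5p and hsa-miR-21-3p, were followed here through m7G RNA immunoprecipitation. The 2 miRNAs were taken by name from the 2588 mature miRNAs counted, and both passed the filter on low counts together with 798 others. Caco-2, a long-established line from a human colorectal adenocarcinoma, was grown without treatment in Eagle's Minimum Essential Medium with fetal bovine serum. In the study's protocol total RNA was first decapped, so that the m7G of mRNA caps would not be detected, and then heat-denatured. It was either kept as input (3 libraries) or immunoprecipitated with an anti-m7G antibody (m7G-RIP, 3 libraries), and small RNA libraries were sequenced from both. All 6 libraries come from this single line, and a library from a control antibody was not analysed here, so input is the reference for every comparison. The labels number the replicates without saying whether they are separate cultures, and p-values therefore measure the spread between these libraries, which may be technical.

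Counts on miRNAs summed to between 16466178 and 19628046 in the input and to between 1654102 and 3105129 in m7G-RIP. No 2 libraries of a group agreed within sampling noise (chi-square over miRNAs divided by its degrees of freedom, 17.5 to 105). miR-192-5p and miR-194-5p, which are typical of intestinal epithelium, ranked 5 and 10 in the input, whereas miR-122-5p of liver and miR-223-3p of myeloid cells had 0 counts in each input library and miR-124-3p of neurons had 0 to 3. Of the other markers tabulated, the intestinal miR-215-5p ranked 37, miR-133a-3p of muscle had 646 to 777 counts per input library and miR-451a of red blood cells had 26 to 92. These 8 were chosen with the table already known.

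A primary miRNA transcript is cut by DROSHA in the nucleus into a hairpin, and DICER then cuts the hairpin into a duplex of a 5p and a 3p strand. One strand of the duplex is loaded into an Argonaute protein and guides it to mRNAs through its seed, bases 2 to 8, and the other strand is mostly degraded. In miR-21 the 5p strand is the guide, and it is known to repress the tumor suppressor PDCD4 and to be raised in many carcinomas, colorectal cancer among them. 7-methylguanosine (m7G) is a methylated guanosine known from mRNA caps, tRNAs and rRNAs, and the study asked which mature miRNAs carry it internally. An anti-m7G antibody is meant to pull down RNA that carries the mark, and the comparison of m7G-RIP with input asks how much of each arm was recovered relative to other miRNAs.

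The hairpin gene MIR21 (ENSG00000284190.1) is 72 bases long and lies on the plus strand of chromosome 17, at 59841266 to 59841337 in GRCh38. It sits inside VMP1, a gene of the autophagy machinery on the same strand, and in all 6 protein-coding VMP1 transcripts that span it the hairpin falls within the annotated untranslated region. miR-21-5p occupies chr17:59841273-59841294 and has a single locus in RefSeq. Its sequence is shown because the seed and the guanosines, the only bases that can become m7G, can be read from it. The seed is in capitals, and so are bases 2 to 8 of miR-590-5p (chr7:74191213-74191234), the only other miRNA of the count table with a RefSeq sequence that shares the seed of miR-21-5p, and of let-7e-5p (chr19:51692793-51692814), which the study examined by mass spectrometry. Sequences are those of RefSeq in GRCh38.p14, which holds 1 of the 2 arms of miR-21.
hsa-miR-21-5p: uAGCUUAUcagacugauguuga
hsa-miR-590-5p: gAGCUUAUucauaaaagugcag
hsa-let-7e-5p: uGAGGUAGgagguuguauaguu
miR-21-5p has 5 guanosines among 22 bases (22.7%), at positions 3, 11, 15, 18 and 21 from the 5′ end, and no pair of them is adjacent. let-7e-5p has 9 among 22 bases (40.9%), at positions 2, 4, 5, 8, 9, 11, 12, 15 and 20. Both carry a guanosine at position 11. miR-590-5p had 16, 18 and 17 counts in input replicates 1, 2 and 3 and 1, 0 and 0 in m7G-RIP, too few to be tested.

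miR-21-5p was one of the dominant miRNAs of Caco-2 cells, and its share of the library dropped about 10-fold on immunoprecipitation. It took 18.9%, 18.8% and 19.0% of all miRNA counts in input replicates 1, 2 and 3 (3143753, 3686264 and 3130939 counts). In m7G-RIP it took 2.05%, 1.61% and 1.96% (63355, 50121 and 32492 counts). The lowest input share was 9.15 times the highest m7G-RIP share, and the ratio of the mean shares was 10.1. How many of all tested miRNAs had groups separated in this way was not counted. Its rank among all miRNAs moved from 2 in each input library to 12, 13 and 12 in m7G-RIP. In the input, its neighbours in rank were well apart, with miR-372-3p above it at 30.0% ± 0.953 (SD, n = 3) and miR-30d-5p below it at 11.4% ± 0.198 (SD, n = 3). In m7G-RIP it had a mean of 1.88% ± 0.232 (SD, n = 3), and its range overlapped that of miR-191-5p at 1.90% ± 0.182 (SD, n = 3) and that of miR-7-5p at 1.54% ± 0.119 (SD, n = 3). The difference of the mean shares was -17.0 percentage points (exact permutation test over libraries, two-sided, p = 0.1, the smallest p that 3 against 3 libraries allow).

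miR-21-3p, the passenger strand, was far rarer and dropped as well. It had 2751, 3221 and 3054 counts in input replicates 1, 2 and 3, against 21, 28 and 21 in m7G-RIP. As a share of the library this is 0.0165%, 0.0164% and 0.0185% in the input, and 0.000680%, 0.000902% and 0.00127% in m7G-RIP. On so few counts the m7G-RIP shares are uncertain, with 95% Clopper-Pearson intervals of 0.000421% to 0.00104% for replicate 1, 0.000599% to 0.0013% for replicate 2 and 0.000786% to 0.00194% for replicate 3, which overlap each other. Reads carry no molecular identifiers, so such intervals cover counting error only. Every input share was at least 12.9 times every m7G-RIP share, and the difference of the means was -0.0162 percentage points (exact permutation test, two-sided, p = 0.1, again the smallest possible). For miR-21-5p the intervals are narrow, 2.04% to 2.07% in m7G-RIP replicate 1 against 1.60% to 1.63% in replicate 2 and 1.94% to 1.99% in replicate 3, so these libraries differed from each other by more than counting error.

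A share is easy to read, but it falls both when a miRNA is lost and when other miRNAs are gained. The log2 ratio of m7G-RIP over input, here called log2 enrichment, was therefore fitted across all 800 tested miRNAs with edgeR, on library sizes scaled with TMM factors, which are set so that the bulk of miRNAs does not change. Levels are given as CPM, the counts per 1000000 counts of the scaled library size. miR-21-5p had 276665 ± 10808 CPM in the input and 12879 ± 2193 CPM in m7G-RIP (SD, n = 3 each). This is a log2 enrichment of -4.43, or a 21.5-fold lower level in m7G-RIP, with a standard error of 0.18 (quasi-likelihood test of edgeR, Benjamini-Hochberg adjusted p = 1.49e-10). miR-21-3p went from 251 ± 16.0 CPM to 6.38 ± 1.32 CPM (SD, n = 3 each), which is 39.9-fold lower and a log2 enrichment of -5.32, with a standard error of 0.22 (same edgeR test, adjusted p = 1.65e-10). Both arms were thus called depleted, 2 of 2, where 38.1% of all tested miRNAs were (305 of 800, with 321 enriched). Scaled with total counts these were 198 and 442, and with upper-quartile factors 227 and 418. Over the 9 possible combinations of an input and an m7G-RIP library the log2 CPM ratio lay between -4.68 and -4.12 for miR-21-5p and between -5.71 and -4.92 for miR-21-3p. Between same-numbered libraries the SD of this ratio was 0.28 and 0.21.

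**Figure D1:**
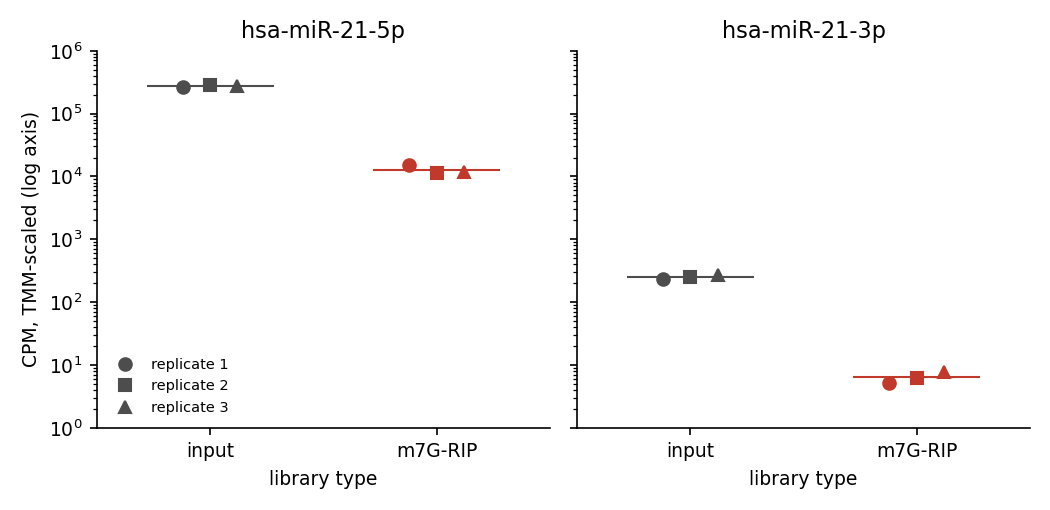
Level of miR-21-5p (left) and miR-21-3p (right) in each library, in CPM on a log axis; symbols are replicates and horizontal lines are group means (n = 3). Means of input and m7G-RIP are 276665 against 12879 CPM for the 5p arm and 251 against 6.38 CPM for the 3p arm.

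Among all 800 tested miRNAs, whose median log2 enrichment was 0.16, 49 had a lower value than miR-21-5p and 22 a lower value than miR-21-3p. In the input miR-372-3p alone was more abundant than miR-21-5p, and it was not among these 49. For 27 of the 49 no m7G-RIP library held more than 3 counts. Of the 22 miRNAs below miR-21-3p, 16 had so few counts in m7G-RIP and 5 were at least as abundant in the input. Only miR-372-3p and miR-30d-5p lay within 2-fold of the input level of miR-21-5p, and both were depleted, by less. miR-372-3p, an embryonic miRNA, was at -3.04 on the log2 scale, with a standard error of 0.16 (edgeR, adjusted p = 1.87e-09), and miR-30d-5p at -1.41, with a standard error of 0.19 (edgeR, adjusted p = 1.61e-05). Within 2-fold of the input level of miR-21-3p there were 83 miRNAs, of which 49 were depleted and 22 enriched, with a median log2 enrichment of -1.05, and 2 of them were lower than miR-21-3p.

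**Figure D2:**
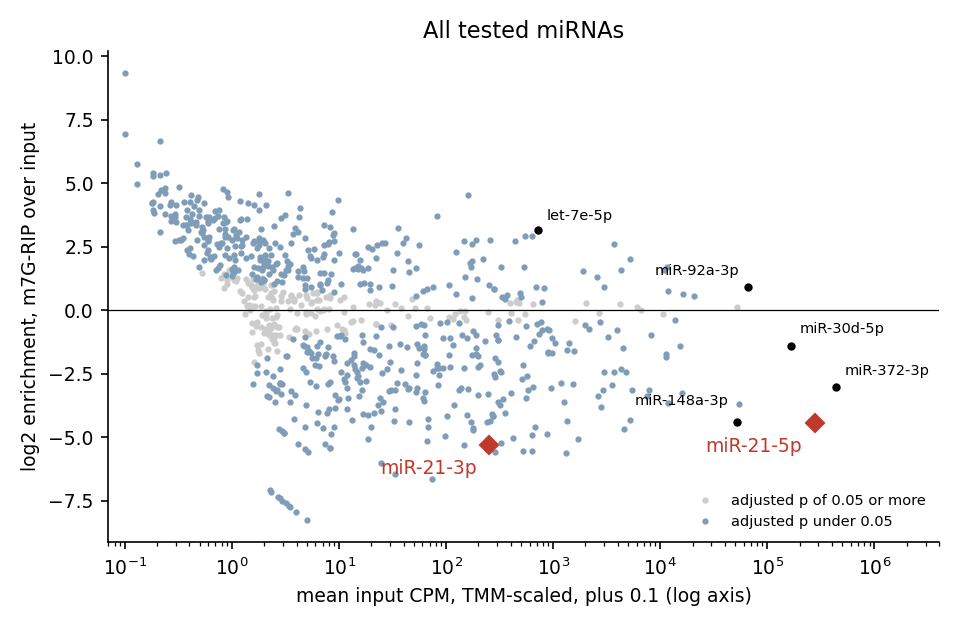
Log2 enrichment of m7G-RIP over input against mean input level (CPM plus 0.1, log axis) for the 800 tested miRNAs; diamonds are the arms of miR-21 with their standard errors and black points are other miRNAs named in the text. miR-21-5p lies at -4.43 at the abundant end and miR-21-3p at -5.32 at a mean input level of 251 CPM.

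Since the zero of a log2 enrichment depends on how libraries are scaled, both arms were recomputed under other scalings. With total counts alone, which makes the comparison the same as that of library shares, miR-21-5p had a log2 enrichment of -3.33 and miR-21-3p of -4.22. Upper-quartile factors gave -3.60 and -4.50, and TMMwsp factors gave -4.47 and -5.36. Totals without the 2 most abundant input miRNAs, which are miR-372-3p and miR-21-5p itself, gave -4.15 and -5.04. DESeq2's size factors gave the lowest values, -4.78 and -5.66. The adjusted p stayed below the threshold of 0.05 for both arms with every one of these scalings (largest adjusted p = 1.04e-07, edgeR, for miR-21-3p with total counts). The scaling moved the median of all tested miRNAs along with them, from 1.23 with total counts to -0.19 with DESeq2's size factors, against 0.16 with TMM. Relative to that median miR-21-5p was at -4.58 with TMM, -4.56 with total counts and -4.59 with DESeq2's size factors. These values can hardly differ, since a scaling shifts all tested miRNAs by about the same amount. Where the set of tested miRNAs changed, the value ran from -4.84 without input replicate 1 to -3.89 with no filter.

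**Figure D3:**
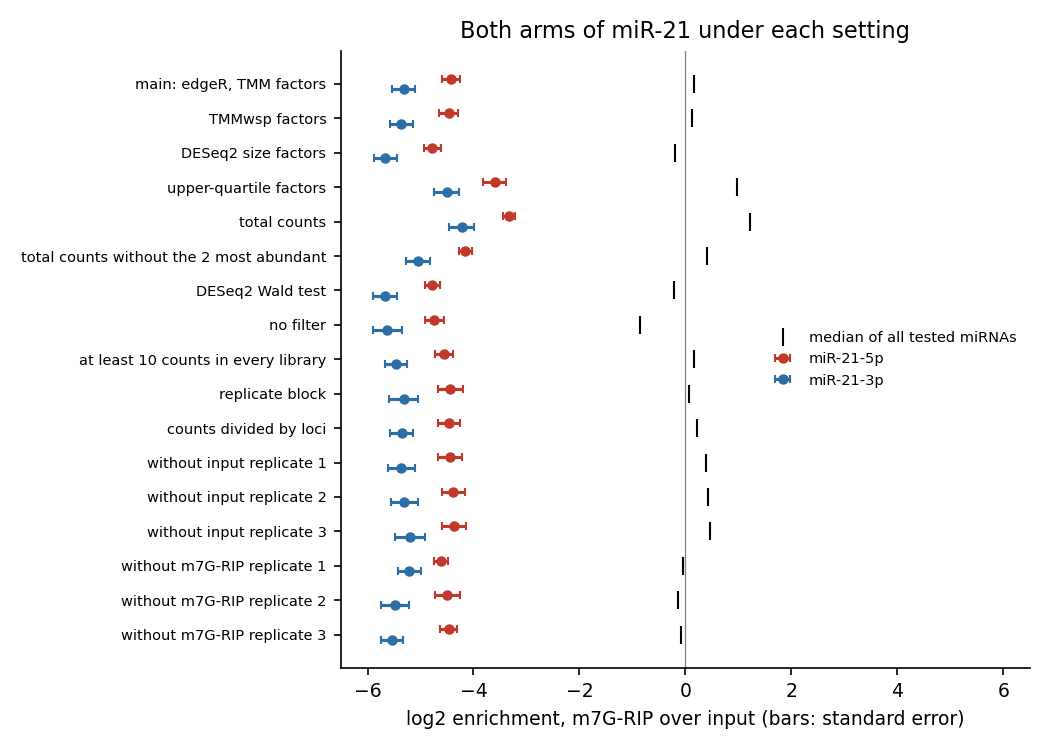
Log2 enrichment of miR-21-5p and miR-21-3p under each scaling, test, filter and left-out library, with standard errors; short black bars mark the median of all tested miRNAs under the same setting. Both arms stay far below the median in every row, between -4.78 and -3.33 for the 5p arm and between -5.68 and -4.22 for the 3p arm.

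Ratios between miRNAs of the same library need no scaling at all, and miR-21-5p was set against the 5 other miRNAs that were most abundant in the input. Relative to miR-92a-3p, of the oncogenic miR-17/92 cluster, it fell from a count ratio of 4.24 ± 0.213 in the input to 0.105 ± 0.0049 in m7G-RIP (SD, n = 3 each), 40.3-fold. Relative to miR-30d-5p the ratio went from 1.65 ± 0.0187 to 0.211 ± 0.0438, and relative to miR-372-3p from 0.631 ± 0.0243 to 0.241 ± 0.0156 (SD, n = 3 each). The groups did not overlap in any of these ratios. Against the intestinal miR-192-5p the shift was smaller, from 5.05 ± 0.19 to 3.06 ± 0.208 (SD, n = 3 each), still without overlap. Against miR-148a-3p, which the study used as a negative control in other assays, the groups overlapped, with ratios of 5.58, 4.91 and 5.56 in the input and 5.18, 5.43 and 5.20 in m7G-RIP.

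**Figure D4:**
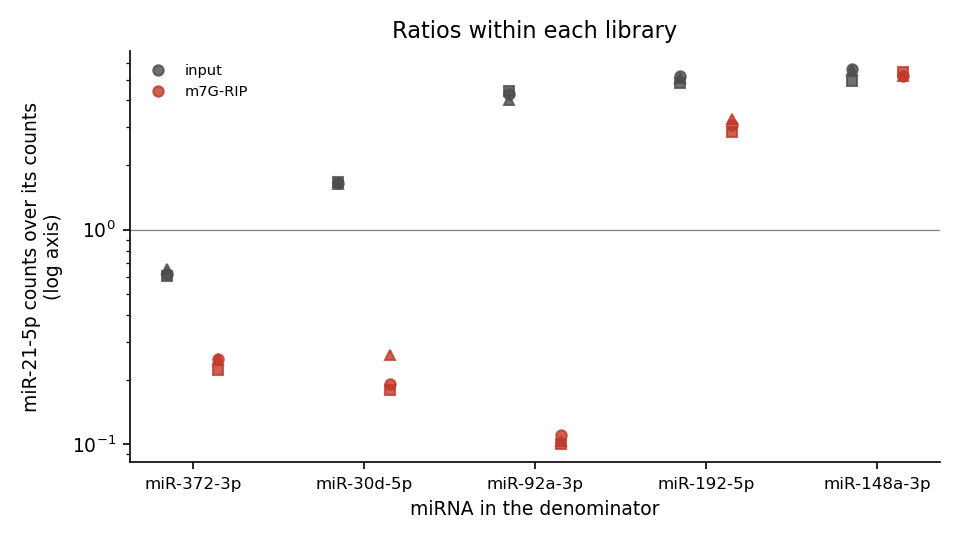
Counts of miR-21-5p divided by those of each of the 5 other most abundant input miRNAs in the same library (log axis); symbols are replicates. The ratio to miR-92a-3p falls from 4.24 to 0.105, whereas the m7G-RIP ratios to miR-148a-3p (5.18 to 5.43) lie inside the input range (4.91 to 5.58).

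The arms come from the same hairpin, and their count ratio within a library needs no scaling either. In the input there were 1143, 1144 and 1025 counts of miR-21-5p for each count of miR-21-3p, in replicates 1, 2 and 3. In m7G-RIP there were 3017 (95% Clopper-Pearson interval 1973 to 4874), 1790 (1238 to 2694) and 1547 (1012 to 2500). Expressed the other way, the 3p arm made up 0.0907% ± 0.0058 of the counts of both arms in the input and 0.0512% ± 0.0162 in m7G-RIP (SD, n = 3 each). Each m7G-RIP ratio was above each input ratio, but the interval of m7G-RIP replicate 3 reaches down to the input values. The spread was also wider in m7G-RIP, with an SD of the log2 ratio of 0.51 against 0.09 in the input. A fit was made across the 194 hairpins whose arms share a name and were both tested. In it the log2 ratio of 5p over 3p was higher in m7G-RIP by 0.89 (standard error 0.26, adjusted p = 0.0212, edgeR's quasi-likelihood test of the interaction of arm and immunoprecipitation). The adjusted p of this fit was 0.0593 without input replicate 1, 0.0511 without input replicate 2 and 0.0674 without input replicate 3 (edgeR), so the call was lost whenever an input library was left out. The exact permutation test over the 6 libraries gave a difference of 0.88 (two-sided, p = 0.1, the smallest possible).

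This difference between the arms has to be read against other hairpins. The ratio of 5p over 3p was called higher in m7G-RIP for 94 of the 194 hairpins (48.5%) and lower for 45, and the median log2 change was 0.91. A larger change than that of miR-21 was found for 97 hairpins and a smaller one for 96, so miR-21 was in the middle of the distribution. Among the 81 hairpins with more 5p than 3p counts in the input, as for miR-21, the median was 0.35, with 29 called higher and 23 lower. In its input ratio miR-21 was closer to the extreme, with only 2 of the 194 hairpins having more 5p counts for each 3p count. Hairpins with an arm too rare to be tested are left out, and very unequal arms favour this. The rank therefore holds only among the 194. Arms whose names are numbered differently were not paired, such as miR-26a-5p and miR-26a-2-3p. These had 563770, 723508 and 583521 against 131, 128 and 103 counts in input replicates 1, 2 and 3. This need not be the ratio of a single hairpin, since a 5p name without a number can cover several loci. It was therefore not ranked against miR-21. Of the 194 hairpins, both arms were depleted for 59, miR-21 among them, and both were enriched for 40. The arms were called in opposite directions for 36.

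**Figure D5:**
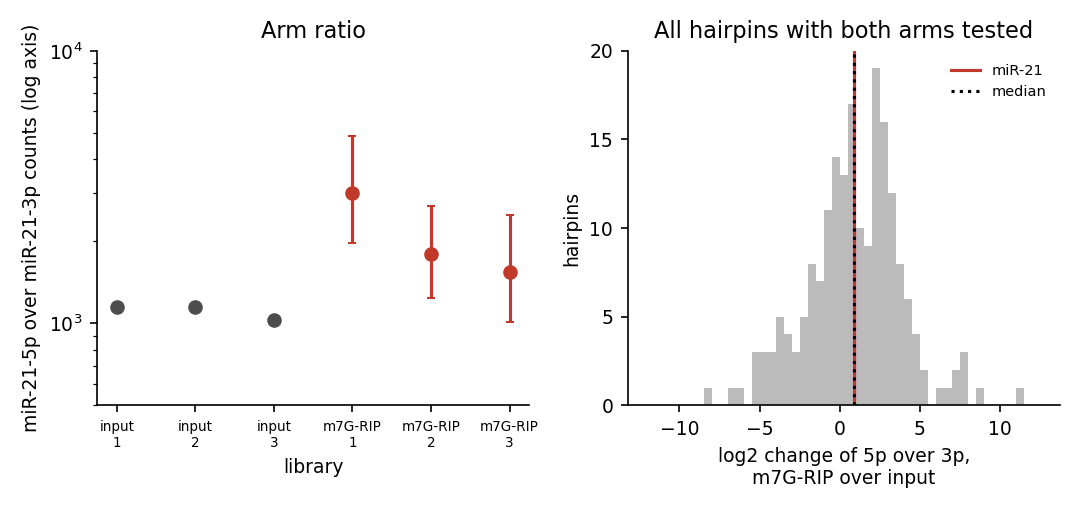
Left, counts of miR-21-5p for each count of miR-21-3p in each library (log axis) with 95% Clopper-Pearson intervals, which for the input are about the size of the symbol. Right, log2 change of 5p over 3p between m7G-RIP and input for 194 hairpins, on which miR-21 at 0.89 lies beside the median of 0.91.

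The miRNAs most like each arm were found from log2 CPM over the 6 libraries, centred on each miRNA's own mean, by the root mean square distance. For miR-21-5p the closest was miR-148a-3p at a distance of 0.06, followed by miR-374a-5p at 0.07, miR-429 at 0.07, miR-141-5p at 0.09 and miR-200a-3p at 0.11. miR-429, miR-141 and miR-200a belong to the miR-200 family, known for maintaining epithelial identity. The family as a whole did not share this profile. Its other tested arms had log2 enrichments of -5.33 (miR-141-3p), -2.25 (miR-200c-5p), -1.41 (miR-200b-3p), -1.10 (miR-200a-5p), 0.55 (miR-200c-3p) and 1.00 (miR-200b-5p). The 5 miRNAs closest to miR-21-5p had log2 enrichments from -4.61 to -4.33. Similar values follow from the choice by profile, here and for miR-21-3p below. Their input levels ran from 67.4 CPM for miR-141-5p to 52011 CPM for miR-148a-3p, so a profile like that of miR-21-5p occurred at very different abundance. For miR-21-3p the closest were miR-181a-3p at 0.15, miR-101-3p at 0.18, miR-30e-5p at 0.20, miR-455-5p at 0.28 and miR-19a-3p at 0.28, with log2 enrichments from -5.61 to -4.89. The arms of miR-21 lay 0.50 from each other, and 47 tested miRNAs were closer to miR-21-5p than its own 3p arm was.

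In a list of 21 other miRNAs regarded as oncogenic in the literature, all were tested, 16 were depleted and 5 enriched, with a median log2 enrichment of -2.43, against 38.1% depleted and a median of 0.16 over all tested miRNAs. miR-372-3p (-3.04) and miR-373-3p (log2 enrichment -1.85) were depleted, whereas miR-92a-3p had a log2 enrichment of 0.90 and miR-182-5p one of 1.60. Of these 21, 3 were lower than miR-21-5p and 2 lower than miR-21-3p, and the lowest was miR-19a-3p at -5.58. A list of 24 tumor-suppressive miRNAs, all tested, had 11 depleted and 9 enriched members and a median of -0.36, and ranged from -5.61 for miR-101-3p to 3.16 for let-7e-5p. Its most abundant members were miR-148a-3p (log2 enrichment -4.41), miR-200c-3p (0.55), let-7f-5p (0.63) and miR-194-5p (-3.28). Some of its members, such as the let-7 family and miR-125a-5p, are miRNAs on which the study reported, so the list is not independent of it. The lists also differ in abundance and share sequence families, which was not taken into account. Of the 20 most abundant input miRNAs other than miR-21, 12 were depleted and 6 enriched, with a median of -1.20, and none was lower than miR-21-5p, the nearest being miR-148a-3p at -4.41.

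The guanosines of miR-21-5p were compared with those of the 714 tested miRNAs that have a RefSeq sequence. Its guanosine share of 22.7% was below the median of 27.3%, and 226 miRNAs had a lower share. The motif GG, absent from miR-21-5p, was searched on the mature strand as printed, overlapping matches included. It was missing from 185 of these miRNAs (25.9%), which had a median log2 enrichment of -0.65 with 80 depleted (43.2%) and 48 enriched, against 0.50 with 188 depleted (35.5%) and 242 enriched for the 529 miRNAs with GG. Among miRNAs with at least 1000 CPM in the input, 37 of 55 were depleted (67.3%). These were 10 of 12 without GG, miR-21-5p among them, and 27 of 43 with GG. The 214 miRNAs with a guanosine at position 11 had a median log2 enrichment of 1.02 with 62 depleted (29.0%), miR-21-5p among these, against -0.27 with 206 depleted (41.2%) for the other 500. Across the 714 miRNAs the Spearman correlation between guanosine share and log2 enrichment was 0.50; the miRNAs share libraries and sequence families, and this is a description only.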

How the data were processed

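Small RNA libraries of Caco-2 input and m7G-RIP RNA (3 each) were analysed. The authors trimmed adaptors with Trimmomatic, mapped reads to GRCh38 (STAR in the methods, Bowtie2 in the submitters' processing notes) and counted them with featureCounts on the mature miRNAs of miRBase release 22; the deposited values are raw read counts without normalization. How reads with several loci were counted is not given in the sources used here. Of the counts above 0 of miRNAs with 4 RefSeq loci, 24 of 25 were exact multiples of 4, and of those with 2 loci 239 of 314 (76.1%) were even. miR-21-5p has 1 RefSeq locus, but such counts enter the library totals, and counts divided by the number of loci were added as an alternative after the data were seen.

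Groups come from the condition in the labels. edgeR 4.0.16 in R 4.3.3 was used with filterByExpr (minimum count 10, minimum total 15), TMM factors and the quasi-likelihood test, and Benjamini-Hochberg adjustment over all 800 tested miRNAs; calls are at an adjusted p under 0.05. The standard error is the absolute log2 enrichment divided by the square root of F. Arm ratios were fitted with 1 row per hairpin name, a term for each library, a term for arm and their interaction with m7G-RIP, adjusted over 194 hairpins. Shares were compared with exact permutation tests (scipy 1.17.1). Centred profiles used log2 CPM with a prior count of 2. Both edgeR fits were tested on simulated data. Alternatives were other scalings, DESeq2 1.42.0, other filters, the replicate block and leaving out each library. Python 3.11.15, pandas 2.3.3, numpy 2.4.6 and matplotlib 3.10.9 were used. Locus coordinates come from GENCODE release 44 and RefSeq.

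Named miRNAs are both arms, those sharing a seed with an arm, the 5 most abundant others, the 5 most like each arm, and up to 4 of the most abundant members of each list. Others were named after their values were seen. These are let-7e-5p, the extremes of each list, rank neighbours, the arms of miR-26a and the other tested arms of the miR-200 family. The members and lists were chosen with earlier results of these data known.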

Additional observations from a re-analysis of the deposited data

How the results depend on the processing

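All 32 alternative values of the log2 enrichment of both arms kept their direction and an adjusted p under 0.05 (edgeR or DESeq2). miR-21-5p lay between -4.78 (DESeq2's size factors) and -3.33 (total counts) and miR-21-3p between -5.68 (DESeq2's Wald test) and -4.22 (total counts); leaving out each library in turn gave -4.61 to -4.37 and -5.54 to -5.20. With counts divided by the number of loci, the values were -4.47 and -5.36. The study's protocol sets the input aside from the RNA to be immunoprecipitated, but the labels do not say whether same-numbered libraries are such pairs. Their deviations from the group means had correlations of -0.0142, -0.0275 and 0.06, and 1 of 3 input libraries correlated best with its own number. With so few libraries this cannot decide whether they are paired. The replicate block gave -4.44 for miR-21-5p, -5.32 for miR-21-3p and 0.88 for the arm ratio (adjusted p = 0.0491, edgeR), and changed no call for miR-21. Over all tested miRNAs it gave 295 depleted and 296 enriched, against 305 and 321 without it.

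The change of the log2 arm ratio, 0.89 as reported, was positive throughout, from 0.602 without m7G-RIP replicate 1 to 1.06 without m7G-RIP replicate 3. The adjusted p ranged from 0.012 to 0.0674 (edgeR) and was above 0.05 without any 1 of the input libraries, where the fit has fewer libraries and fewer hairpins. The exact permutation test gave 0.88, and 0.85 with a pseudocount of 0.5, a design that cannot pass 0.05. The 19 alternative values of the change in library share kept their direction; without miR-372-3p in the total the difference for miR-21-5p was -24.9 percentage points.

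Of the background counts, 305 depleted and 321 enriched miRNAs, the depleted fell to 198 with total counts, and with at least 10 counts in every library there were 175 depleted and 182 enriched of 426 tested. For miR-21-3p the 21 to 28 counts per m7G-RIP library limit the precision; for miR-21-5p the spread between libraries does.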
